A study of Mus musculus with 6 samples.

Results

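The collagen genes were read as all gene names in the deposited counts that consist of Col, a number, the letter a and a number, which gave 44 of 55809 genes. HC11, a line of mouse mammary epithelial cells used by the study as a luminal line, was cultured in medium with BMP7 (BMP7 group, 3 libraries) or without BMP7 (Ctrl group, 3 libraries), and poly(A) RNA was sequenced. By the methods, cells were starved for 16 h and BMP7 was given at 50 ng/mL, with stimulations of 30 min and 6 h listed. Which of these applies to the sequenced cells is not said. All libraries come from 1 cell line, nothing in the labels says that they are separate cultures, and the p-values measure the spread between these libraries. The study made the comparison in search of factors that luminal cells, once stimulated by BMP7, send to basal cells.

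Collagens are the main structural proteins of the extracellular matrix. Each is built from α chains of 1 or more genes that wind around each other in a helix, so the genes of 1 collagen type are partners whose products end up in the same molecule. Fibrillar collagens form the fibres of connective tissue and cartilage. Basement membrane (type IV) collagens form the sheet under every epithelium, including that of the mammary ducts. FACIT collagens decorate fibres, transmembrane collagens span the plasma membrane and are shed from it, and type VI collagen forms beaded filaments between basement membrane and matrix.

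Between 14607938 and 23748970 fragments were counted per library. The BMP7 columns are numbered 1, 3 and 4, and these numbers name the libraries here. The BMP targets *Id1*, *Id2* and *Id3* rose in the BMP7 libraries by log2 fold changes of 4.28, 2.82 and 6.31. Per kilobase of exon, the basal keratins *Krt5* and *Krt14* stood at 1203 and 1985 CPM in Ctrl and the luminal keratins *Krt8* and *Krt18* at 32.3 and 34.4, so the line carried more basal than luminal keratin mRNA. BMP7 replicates 3 and 4 stand apart from BMP7 replicate 1. CPM are counts divided by the TMM-adjusted library size. Summed over 8 genes of adipocytes, they were 68.9 and 60.8 in replicates 3 and 4, 20.6 in BMP7 replicate 1 and 11.2 to 18.9 in Ctrl. For 8 genes of macrophages the sums were 11.6 and 10.6 in these libraries, 30.9 in BMP7 replicate 1 and 34.3 to 37.3 in Ctrl. Most of the macrophage sum was *Lyz2*, at 6.76 and 6.94, 22.5 and 25.5 to 26.6 CPM in the same order. *Lyz2* and *Ptprc* were the 2 lower of the 5 tested, against 5.38% of all genes tested. *C1qa*, *C1qb*, *C1qc* and *Mrc1* were under 1 CPM and overlapped between the groups. Results that rest on BMP7 replicates 3 and 4 are given with and without them.

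Of the 44 collagen genes, 30 had at least 10 counts in at least 3 libraries, and edgeR's expression filter passed the same 30. Each of the 30 had at least 10 counts in at least 1 library of either group. *Col5a2* had 17, 31 and 17 counts in BMP7 replicates 1, 3 and 4 and 20, 8 and 14 in Ctrl, so its BMP7 libraries alone met the limit. Levels of different genes are compared as CPM per kilobase of the deposited exon length. In Ctrl the collagens summed to 684 ± 14.6 CPM per kilobase (SD, n = 3 libraries). They ranged over several orders of magnitude, as the plot of levels by class shows.

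**Figure D1:**
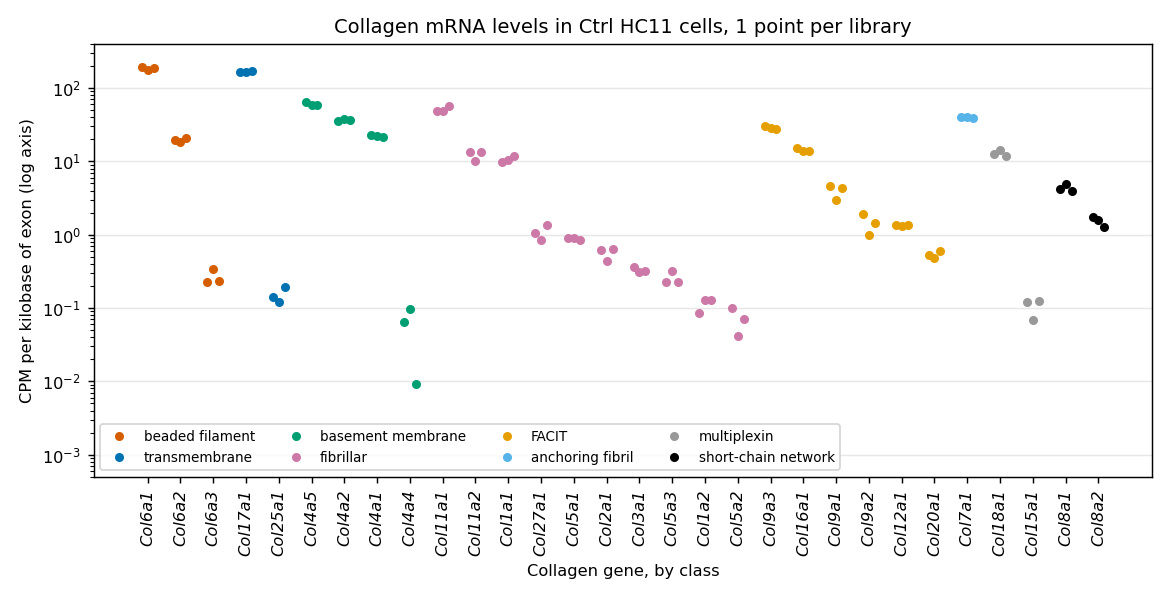
Level of the 30 collagen genes with at least 10 counts in at least 3 libraries, in CPM per kilobase of exon on a log axis, with 1 point for each of the 3 Ctrl libraries and the genes grouped by class. *Col6a1* and *Col17a1* stand at the top, at means of 187 and 170.

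The type VI genes held the largest share of this sum in Ctrl, 30.3%, nearly all of it from *Col6a1*. *Col6a1*, which encodes the α1 chain of type VI collagen, was at 187 ± 8.29 CPM per kilobase in Ctrl (SD, n = 3), the highest of the 44 genes. *Col6a2*, the α2 chain, was at 19.6 ± 1.21. *Col6a3*, whose long chain completes the usual type VI molecule, was at 0.269 ± 0.0660. *Col6a4*, *Col6a5* and *Col6a6*, which encode chains that can stand in for it, had at most 3 counts in any library. The level of *Col6a1* was thus 514 to 855 times that of *Col6a3* across the Ctrl libraries.

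Transmembrane collagens held 24.8% of the sum, all but a trace from *Col17a1*. *Col17a1* encodes the hemidesmosome collagen that ties basal epithelial cells to the basement membrane, and was at 170 ± 2.96 CPM per kilobase. The neuronal collagen *Col25a1* was at 0.152 ± 0.0386, and *Col13a1* and *Col23a1* had at most 2 counts in any library. *Col7a1*, which makes the anchoring fibrils below the epidermal basement membrane and forms a class of its own, was at 39.9 ± 0.691. Both collagens of the epithelial anchoring complex were therefore among the 5 most abundant collagen mRNAs of these cells.

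Basement membrane collagens held 17.5% of the sum. *Col4a5* was the most abundant at 60.3 ± 2.91 CPM per kilobase, above *Col4a2* at 37.0 ± 1.39 and *Col4a1* at 22.1 ± 0.642. The chains of *Col4a1* and *Col4a2* form the network found in all basement membranes, whereas that of *Col4a5* assembles with those of *Col4a3* and *Col4a4* or of *Col4a6*. These partners of *Col4a5* were nearly absent, with at most 21 counts for *Col4a4*, 12 for *Col4a3* and 4 for *Col4a6* in any library.

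Fibrillar collagens held 11.4% of the sum. *Col11a1*, the α1 chain of the minor fibrillar type XI of cartilage, led at 51.8 ± 4.25 CPM per kilobase, followed by its partner *Col11a2* at 12.3 ± 1.87 and by *Col1a1*, the α1 chain of type I collagen, at 10.8 ± 1.07. The other 7 with enough counts lay between *Col27a1*, a cartilage-type fibrillar collagen, at 1.10 ± 0.271 and *Col5a2* at 0.0709 ± 0.0297. *Col1a2*, the partner of *Col1a1*, was at 0.115 ± 0.0260, and the fibroblast collagen *Col3a1* at 0.331 ± 0.0246. The fibrillar genes read in HC11 cells were thus led by type XI, with the type I and III genes of fibroblasts lower.

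FACIT collagens held 7.39% of the sum, with *Col9a3* at 29.0 ± 1.26 CPM per kilobase and *Col16a1* at 14.2 ± 0.857 ahead of *Col9a1* at 3.97 ± 0.857, *Col9a2* at 1.45 ± 0.457, *Col12a1* at 1.33 ± 0.0179 and *Col20a1* at 0.540 ± 0.0561. The multiplexins, whose C-terminal ends can be cut off as soluble fragments, were *Col18a1* at 12.9 ± 1.27 and *Col15a1* at 0.105 ± 0.0304. The short-chain network collagens of type VIII were *Col8a1* at 4.33 ± 0.474 and *Col8a2* at 1.55 ± 0.238. Neighbours in this order overlapped in several places, as between *Col11a2* and *Col18a1*.

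The remaining 14 collagen genes stayed below 10 counts in 3 libraries and were not tested. The hypertrophic cartilage gene *Col10a1* had 0 to 7 counts, *Col28a1* 3 to 16 and *Col14a1* 0 to 6. *Col24a1* had 0 to 4, and *Col19a1* and *Col22a1* at most 1. In all, 8 of the 44 genes never exceeded 3 counts, and *Col26a1* had 0 counts in all libraries, which allows up to 3 counts, or 0.133 to 0.209 CPM, per library. These limits cover counting error only.

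With BMP7, 11 of the 30 tested collagens were higher and 1 was lower. A gene was called when its adjusted p was below 0.05 and its change exceeded a fold of 1.2 (edgeR's quasi-likelihood test, Benjamini-Hochberg adjustment over 15733 genes). Of all genes tested, 11.4% were called, 5.99% higher and 5.38% lower, against 40.0% of these collagens. The groups did not overlap for 66.7% of the 30, against 29.8% of all genes tested. All BMP7 libraries were above Ctrl in 15 of the 30, against 14.8% of all genes tested. They were all below Ctrl in 5 of the 30, close to the share over all genes tested, 15.1%. The median log2 fold change of the 30 was 0.22, against -0.01 over all genes tested. By class, 5 of 10 fibrillar, 3 of 6 FACIT, 2 of 3 type VI and 1 of 2 type VIII genes were higher, and no type IV, transmembrane, multiplexin or type VII gene was called. The sum over all 44 genes went from 667 to 693 CPM per kilobase in Ctrl to 964 to 997 with BMP7, and the type VI share of it from 30.3% to 46.1%. In bulk RNA, more cells that express a gene and more RNA per cell cannot be told apart.

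**Figure D2:**
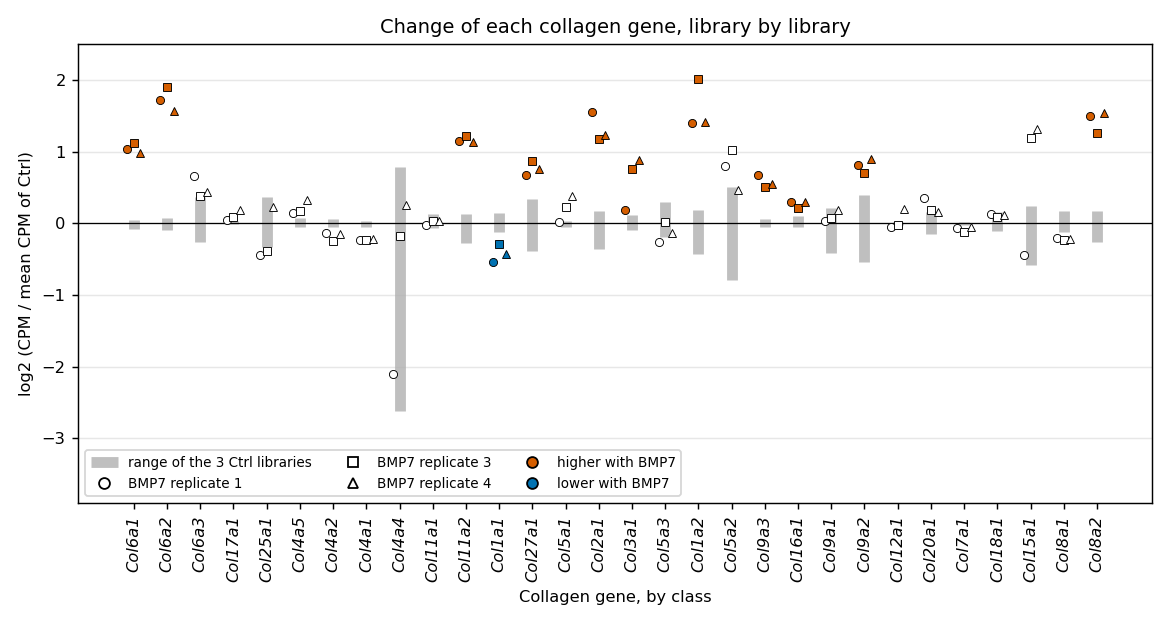
log2 ratio of each BMP7 library to the mean Ctrl CPM for the 30 tested collagen genes, by class, with circles, squares and triangles for BMP7 replicates 1, 3 and 4, grey bars for the range of the 3 Ctrl libraries, orange for genes higher and blue for the gene lower at the threshold. All 3 BMP7 points of *Col6a2* lie above 1.5, and those of the type IV genes *Col4a1* and *Col4a2* lie just under 0.

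The type VI genes carried the largest change in level. *Col6a1* (mm39 annotation, chromosome 10, 76544626 to 76562002) was at 845, 778 and 836 CPM in Ctrl replicates 1, 2 and 3 and at 1672, 1772 and 1612 in BMP7 replicates 1, 3 and 4. The groups did not overlap, and each BMP7 library was about as high as the others (log2 fold change 1.04, standard error 0.07, adjusted p = 9.98e-09 in edgeR's quasi-likelihood test). *Col6a2*, 85162 bases away on the same strand from 76431596 to 76459464, was at 165, 152 and 172 CPM in Ctrl and at 534, 607 and 483 with BMP7 (log2 fold change 1.73, standard error 0.08, adjusted p = 2.54e-10 in the same edgeR test). The lowest BMP7 library stood far above the highest Ctrl library. *Col6a3* was at 2.70, 4.13 and 2.84 CPM in Ctrl and at 5.09, 4.18 and 4.35 with BMP7, a log2 fold change of 0.49 that did not pass the threshold (adjusted p = 0.139 in the edgeR test).

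*Col6a2* rose by more than *Col6a1*. The ratio of *Col6a1* to *Col6a2*, both per kilobase, was between 9.24 and 9.73 in the Ctrl libraries and between 5.55 and 6.34 in the BMP7 libraries (two-sided exact permutation p = 0.1, the smallest that 3 libraries against 3 allow, and 0.167 adjusted over the 10 ratios of partner chains computed). With the length of the longest protein-coding transcript in GENCODE vM21 in place of the deposited exon length, the mean ratio was 5.71 in Ctrl and 3.55 with BMP7. The deposited exon length of *Col6a2* is 1.79 times its longest transcript. A gene's length is the same in every library, so the choice sets the size of the ratio and cannot alter its fold change.

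The sequences before the starts of *Col6a1*, *Col6a2*, *Col11a2* and *Col8a2* are shown because these genes more than doubled from a Ctrl mean above 5 CPM and have a window in the RefSeq table, as 35 of the 44 collagens do. Of the 2 windows of *Col6a2*, the one farther upstream is shown. They were read from RefSeq on GRCm38.p6, not on the mm39 annotation of the counts, 5′ to 3′ on the gene's strand, and end at the first annotated exon. Capitals mark GGGCGG or its complement CCGCCC, the GC box bound by Sp1-type factors.
*Col6a1*, chr10:76726169-76726294, minus strand: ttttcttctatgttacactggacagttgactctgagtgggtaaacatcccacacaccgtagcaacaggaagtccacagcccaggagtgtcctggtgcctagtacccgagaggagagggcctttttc
*Col6a2*, chr10:76623631-76623880, minus strand: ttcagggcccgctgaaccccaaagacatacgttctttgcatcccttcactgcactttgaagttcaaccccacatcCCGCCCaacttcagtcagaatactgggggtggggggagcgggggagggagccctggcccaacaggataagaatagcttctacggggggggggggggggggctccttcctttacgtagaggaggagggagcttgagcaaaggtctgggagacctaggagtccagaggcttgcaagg
*Col11a2*, chr17:34038888-34039137, plus strand: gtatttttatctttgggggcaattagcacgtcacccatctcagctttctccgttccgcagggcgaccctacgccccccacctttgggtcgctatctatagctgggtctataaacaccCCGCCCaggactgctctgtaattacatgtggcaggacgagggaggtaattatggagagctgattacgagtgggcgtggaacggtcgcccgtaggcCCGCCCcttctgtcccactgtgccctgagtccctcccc
*Col8a2*, chr4:126286544-126286792, plus strand: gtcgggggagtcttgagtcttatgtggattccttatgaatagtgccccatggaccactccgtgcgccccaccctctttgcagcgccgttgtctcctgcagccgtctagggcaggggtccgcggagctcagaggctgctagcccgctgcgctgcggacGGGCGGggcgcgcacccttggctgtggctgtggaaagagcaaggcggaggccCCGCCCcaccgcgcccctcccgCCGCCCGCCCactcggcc

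Counting overlapping matches, the 4 sequences differ in their GC boxes, with 0 for *Col6a1*, 1 for *Col6a2*, 2 for *Col11a2* and 4 for *Col8a2*. The window of *Col6a2* that is not shown has 3. The *Col6a1* sequence has 126 bases, against 249 or 250 for the others, and its full window of 250 bases also has 0. Over the 250 bases before each start, GGGCGG on either strand is in 32.7% of all 32851 windows and in 57.9% of the 38 collagen windows. These 2 sets were not matched for GC content. Its median over all windows was 52.4%, and the windows of the 4 genes held 56% to 70%. GGCGCC, a palindrome known as a GC-rich element for the BMP-regulated Smads, is in 9.59% of all windows and in 10.5% of the collagen windows, and in none of the windows of these 4 genes. CAGAC or GTCTG, the core of the Smad-binding element, is in 42.2% of all windows and in 44.7% of the collagen windows. *Col6a2* holds it once, in the window shown. A match is only a run of letters in these windows.

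Collagen genes of cartilage formed the next group. *Col11a2* encodes the α2 chain of type XI collagen, in which it joins the α1 chain of *Col11a1* and a chain made from *Col2a1*, the gene of the main cartilage fibre. *Col11a2*, on chromosome 17 from 34258411 to 34285659, was at 92.3, 69.5 and 91.3 CPM in Ctrl and at 187, 196 and 185 with BMP7 (log2 fold change 1.17, standard error 0.09, adjusted p = 8.81e-08 in the edgeR test). *Col2a1*, on chromosome 15 from 97873483 to 97902576, was at 5.63, 4.03 and 5.82 CPM in Ctrl and at 15.2, 11.6 and 12.1 with BMP7 (log2 fold change 1.32, standard error 0.16, adjusted p = 1.87e-05). Both genes were more than 2-fold above the Ctrl mean in every BMP7 library, with no overlap between the groups, and *Col2a1* was highest in BMP7 replicate 1. *Col11a1* was at 629, 630 and 723 CPM in Ctrl and at 646, 678 and 674 with BMP7, within the Ctrl range (log2 fold change 0.01, standard error 0.07, adjusted p = 0.937). The ratio of *Col11a1* to *Col11a2* per kilobase fell from between 3.67 and 4.89 in the Ctrl libraries to between 1.86 and 1.96 with BMP7 (two-sided exact permutation p = 0.1, the smallest possible, 0.167 adjusted over 10 ratios), whereas that of *Col11a2* to *Col2a1* overlapped between the groups (exact permutation test, two-sided p = 0.4, 0.444 adjusted).

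Type IX collagen, a FACIT that coats the fibres of type II and XI collagen, showed a similar split. *Col9a3*, on chromosome 2 from 180239583 to 180263982, was at 117, 111 and 107 CPM in Ctrl and at 177, 159 and 164 with BMP7 (log2 fold change 0.58, standard error 0.06, adjusted p = 7.64e-06 in the edgeR test). *Col9a2*, on chromosome 4 from 120896582 to 120912519, was at 5.92, 3.10 and 4.45 CPM in Ctrl and at 7.88, 7.29 and 8.37 with BMP7 (log2 fold change 0.80, standard error 0.19, adjusted p = 0.0103). Both were higher in all BMP7 libraries, but *Col9a2* lost its place past the threshold without Ctrl replicate 2, at 0.59 (adjusted p = 0.0542), and in the fit of BMP7 replicate 1 alone, at 0.81 (adjusted p = 0.103). *Col9a1* was at 23.2, 15.1 and 22.0 CPM in Ctrl and at 20.5, 21.1 and 22.9 with BMP7, which overlap (log2 fold change 0.10, adjusted p = 0.692). *Col27a1*, also known from cartilage, was at 13.9, 10.9 and 17.9 CPM in Ctrl and at 22.7, 26.0 and 24.1 with BMP7 (log2 fold change 0.77, standard error 0.14, adjusted p = 0.000935). Without BMP7 replicates 3 and 4 its value was 0.67 (adjusted p = 0.0574 in the edgeR test). Of 5 marker genes of cartilage and bone, 3 were tested and 2 rose beside these collagens, against 5.99% of all genes tested. The cartilage proteoglycan *Acan* rose by a log2 fold change of 0.63 and the bone transcription factor *Sp7* by 2.41. *Comp*, also tested, was above Ctrl in all BMP7 libraries but did not pass (log2 fold change 0.92, adjusted p = 0.0569 in the edgeR test). The counts behind *Sp7* were low, 7 to 13 in Ctrl and 39 to 75 with BMP7. The summed CPM of the 5 were 167 to 179 in Ctrl and 265 to 276 with BMP7, *Acan* making up most of it, while the bone matrix genes *Bglap* and *Ibsp* were near 0. What part this has in the collagen values was not tested.

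**Figure D3:**
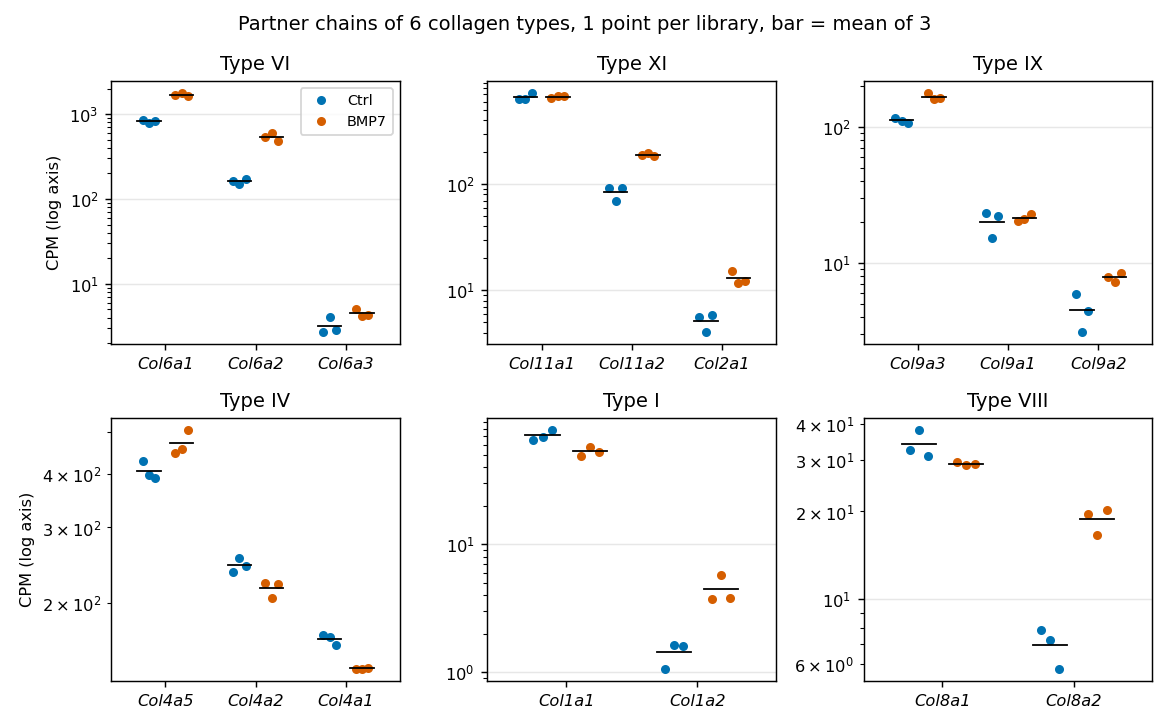
CPM of the partner chains of 6 collagen types on log axes, with 1 point per library, Ctrl in blue, BMP7 in orange and a bar at the mean of 3 libraries. Within types VI, XI, IX and VIII some chains passed the threshold and others did not, as with *Col11a2* and *Col2a1* beside *Col11a1*, and the type I chains passed it in opposite directions.

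Type VIII collagen forms hexagonal networks under endothelia and in other matrices. *Col8a2*, on chromosome 4 from 126180586 to 126208123, was at 7.85, 7.23 and 5.77 CPM in Ctrl and at 19.6, 16.6 and 20.2 with BMP7 (log2 fold change 1.43, standard error 0.13, adjusted p = 9.26e-07 in the edgeR test). *Col8a1*, its partner, was at 32.6, 38.1 and 31.1 CPM in Ctrl and at 29.5, 29.0 and 29.0 with BMP7, below Ctrl in all libraries but not past the threshold (log2 fold change -0.22, adjusted p = 0.107). *Col8a2* thus more than doubled without its partner, and the ratio of *Col8a1* to *Col8a2* per kilobase went from between 2.38 and 3.09 to between 0.825 and 0.999 (two-sided exact permutation p = 0.1, the smallest possible, 0.167 adjusted over 10 ratios). The endothelial marker *Pecam1* also rose (log2 fold change 0.77). The summed CPM of 5 endothelial genes were 13.3 to 15.9 in Ctrl and 24.0 to 26.3 with BMP7, nearly all of it *Pecam1*. Only *Pecam1* of the 5 was tested. *Cdh5* had at most 8 counts, *Tek* at most 4, and *Kdr* and *Emcn* at most 3 in any library.

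The genes of type I collagen moved in opposite directions. *Col1a1*, on chromosome 11 from 94827050 to 94843868, was the 1 collagen lower past both thresholds, at 65.1, 69.5 and 78.8 CPM in Ctrl and at 48.9, 58.1 and 52.6 with BMP7 (log2 fold change -0.41, standard error 0.08, adjusted p = 0.00243 in the edgeR test). Its groups did not overlap, and it stayed past the threshold in each fit that left out 1 library. *Col1a2*, on chromosome 6 from 4504814 to 4541544, rose from 1.06, 1.62 and 1.61 CPM to 3.76, 5.78 and 3.80 (log2 fold change 1.65, standard error 0.26, adjusted p = 0.000269). The counts behind *Col1a2* were low, 22 to 33 in Ctrl and 54 to 130 with BMP7. In the type I molecule, α1 chains outnumber the α2 chain, and here the ratio of *Col1a1* to *Col1a2* per kilobase was between 81.1 and 116 in Ctrl and between 19.0 and 26.2 with BMP7 (two-sided exact permutation p = 0.1, the smallest possible, 0.167 adjusted over 10 ratios). With the longest transcript in place of the deposited length, which is 2.32 times longer for *Col1a2*, the mean ratios were 46.0 and 11.1.

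*Col3a1*, the type III collagen of fibroblasts, on chromosome 1 from 45350698 to 45388866, was at 3.52, 3.05 and 3.18 CPM in Ctrl and at 3.69, 5.47 and 6.0 in BMP7 replicates 1, 3 and 4 (log2 fold change 0.65, standard error 0.20, adjusted p = 0.0394). Its BMP7 replicate 1 was just above the Ctrl range, and the fit of BMP7 replicate 1 alone against Ctrl gave a log2 fold change of 0.19 (adjusted p = 0.739). *Col3a1* also lost its call in the fits without Ctrl replicate 1, 2 or 3 and without BMP7 replicate 3 or 4. *Col15a1*, a multiplexin of the outer basement membrane, had the same shape below the threshold, with 0.442 to 0.782 CPM in Ctrl, 0.488 in BMP7 replicate 1 and 1.51 and 1.65 in BMP7 replicates 3 and 4 (adjusted p = 0.191). Its fitted log2 fold change of 0.91 became -0.44 with BMP7 replicate 1 alone, and without that library it was 1.24 and passed the threshold (adjusted p = 0.0443 in the edgeR test). The fibroblast genes *Dcn* and *Dpt* followed these replicates too, *Dcn* at 0.737 to 1.73 CPM in Ctrl, 1.74 in BMP7 replicate 1 and 4.44 and 4.90 in BMP7 replicates 3 and 4. *Pi16*, also higher past the threshold, was highest in BMP7 replicate 1. It was at 0.983 to 1.64 CPM in Ctrl and at 3.07, 2.93 and 2.09 in BMP7 replicates 1, 3 and 4. Of 8 fibroblast markers without collagens, 5 were tested and 3 were higher, against 5.99% of all genes tested. The summed CPM were 42.1 to 49.7 in Ctrl and 49.5, 55.7 and 60.4 in BMP7 replicates 1, 3 and 4. Most of this sum was *Pdgfra*, at 38.3 to 43.3 CPM in Ctrl and 41.7, 42.0 and 47.4 in these BMP7 libraries. *Pdgfra* overlapped between the groups and did not pass the threshold (log2 fold change 0.11, adjusted p = 0.397 in the edgeR test). *Lum* and *Thy1* stayed under 1 CPM. The part of the fibroblast markers in the *Col3a1* and *Col15a1* values was not tested. For *Col1a2*, BMP7 replicate 1 alone gave 1.39 (adjusted p = 0.0232).

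*Col16a1*, a FACIT of skin and smooth muscle, was at 103, 92.4 and 93.0 CPM in Ctrl and at 118, 112 and 118 with BMP7. The change, 0.27 ± 0.06 on the log2 scale (SE, adjusted p = 0.00827 in the edgeR test), lay just past the fold threshold, and the call was lost with upper-quartile scaling and in the fits without Ctrl replicate 2 or 3 and without BMP7 replicate 1 or 4, where the log2 fold change was between 0.24 and 0.26. *Col12a1*, a FACIT of tendon and ligament, differed by 0.04 on the log2 scale, with overlapping groups (adjusted p = 0.827). *Col20a1* was at 2.51 to 3.08 and 3.08 to 3.55 CPM (adjusted p = 0.535).

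Basement membrane genes changed little. *Col4a1* and *Col4a2* stand head to head on chromosome 8, and their RefSeq starts on GRCm38.p6 lie so close that the transcripts share 22 bases. *Col4a1*, from 11248423 to 11362826 on the mm39 annotation, was at 169, 167 and 160 CPM in Ctrl and at 141, 141 and 142 with BMP7 (log2 fold change -0.23, standard error 0.06, adjusted p = 0.0130), short of the 1.2-fold limit. *Col4a2*, from 11362805 to 11499287, was at 236, 255 and 244 CPM in Ctrl and at 222, 206 and 222 with BMP7 (log2 fold change -0.18, standard error 0.06, adjusted p = 0.0613). All BMP7 libraries lay below all Ctrl libraries for both genes, and the ratio of *Col4a2* to *Col4a1* overlapped between the groups at means of 1.73 with BMP7 and 1.67 in Ctrl (exact permutation test, two-sided p = 0.5). *Col4a5*, on the X chromosome from 140258381 to 140472230, was at 428, 397 and 391 CPM in Ctrl and at 447, 457 and 506 with BMP7 (log2 fold change 0.21, standard error 0.07, adjusted p = 0.0409), also short of the fold limit and in the other direction. The ratio of *Col4a5* to *Col4a1* per kilobase was between 2.64 and 2.81 in Ctrl and between 3.52 and 3.96 with BMP7 (two-sided exact permutation p = 0.1, the smallest possible, 0.167 adjusted over 10 ratios).

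The collagens of the epithelial anchoring complex kept near their Ctrl levels. *Col17a1*, on chromosome 19 from 47634783 to 47680533, was at 1008, 1010 and 1040 CPM in Ctrl and at 1054, 1082 and 1161 with BMP7 (log2 fold change 0.11, standard error 0.06, adjusted p = 0.293). *Col7a1*, on chromosome 9 from 108782654 to 108813943, was at 415, 413 and 402 CPM in Ctrl and at 392, 378 and 397 with BMP7 (log2 fold change -0.08, standard error 0.06, adjusted p = 0.445). *Col18a1*, the main multiplexin of epithelial basement membranes, was between 83.6 and 101 CPM in Ctrl and between 95.7 and 99.2 with BMP7 (log2 fold change 0.11, adjusted p = 0.362). Of 6 basal markers, 3 rose (*Krt14*, *Trp63* and *Oxtr*, by log2 fold changes of 0.43, 0.64 and 1.58) and none fell, while *Krt5* (-0.03), *Myh11* (1.52) and *Acta2* (-1.23) did not pass the threshold. Of 5 luminal markers, 3 fell (*Krt18*, *Epcam* and *Cdh1*, by 0.67, 0.42 and 0.27 on the log2 scale), *Krt8* did not pass (0.09) and *Krt19* was not tested. Over all genes tested, 5.99% were higher and 5.38% lower.

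The other fibrillar and transmembrane genes with low counts showed no change past their spread. *Col5a1*, which starts fibres of type I collagen, was between 7.29 and 7.71 CPM in Ctrl and between 7.67 and 9.81 with BMP7 (adjusted p = 0.325). *Col5a2* was at 0.393 to 0.963 and 0.936 to 1.38 CPM (adjusted p = 0.216), and *Col5a3* at 1.54 to 2.16 and 1.46 to 1.78 CPM (adjusted p = 0.848). *Col25a1* (adjusted p = 0.774) and *Col4a4* (adjusted p = 0.806) also overlapped between the groups. With standard errors of 0.39 for *Col5a2*, 0.29 for *Col25a1* and 0.63 for *Col4a4*, changes of the size seen for *Col9a3* would not have been detectable in them at this depth.

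Collagen chains are hydroxylated, folded with the help of chaperones, secreted, trimmed and cross-linked by dedicated proteins, and are bound by a small set of receptors. Of 47 listed genes of these steps, 33 were tested, 4 were higher and 3 lower, and their median log2 fold change was 0.05, against -0.01 over all genes tested. That is 21.2% called, against 11.4% of all genes.

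**Figure D4:**
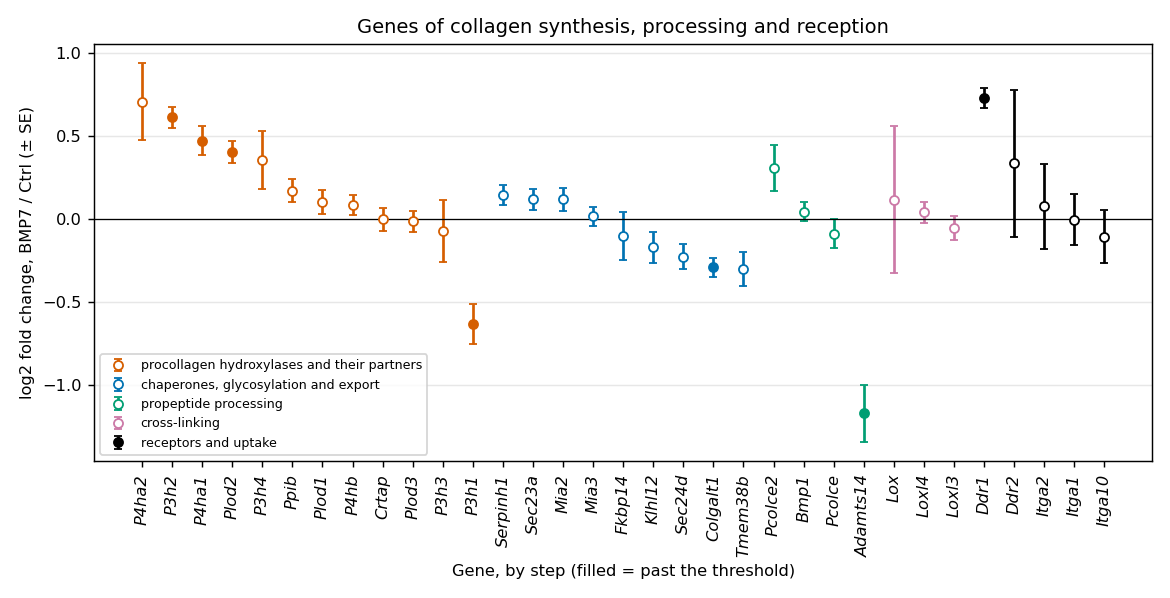
log2 fold change with standard error for the 33 tested genes of collagen synthesis, processing and reception, by step, with filled points for those past the threshold. *P3h2*, *P4ha1*, *Plod2* and *Ddr1* lie above 0 and *P3h1*, *Colgalt1* and *Adamts14* below.

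The changes were spread over the hydroxylases. *P4ha1*, the catalytic subunit of the proline 4-hydroxylase that stabilises the helix, was at 45.5, 59.8 and 51.8 CPM in Ctrl and at 73.1, 76.0 and 68.8 with BMP7 (log2 fold change 0.47, standard error 0.09, adjusted p = 0.00116 in the edgeR test). *Plod2*, the lysine hydroxylase that sets the type of cross-link, was between 83.2 and 85.9 CPM in Ctrl and between 104 and 120 with BMP7 (log2 fold change 0.40, adjusted p = 0.000355). The proline 3-hydroxylases split, *P3h2*, which acts mainly on type IV collagen, rising from 64.0 to 69.3 CPM in Ctrl to 98.6 to 107 (log2 fold change 0.61, adjusted p = 3.64e-06) and *P3h1*, which acts on fibrillar collagens, falling from 11.6 to 13.3 CPM to 7.32 to 8.70 (log2 fold change -0.63, adjusted p = 0.00176). The prolyl hydroxylase partner *P4hb*, also a general disulfide isomerase, was at 1219 to 1291 and 1277 to 1354 CPM, which overlap (adjusted p = 0.427).

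In the later steps, 2 genes fell. *Colgalt1*, which adds galactose to hydroxylysine, was at 206, 220 and 212 CPM in Ctrl and at 172, 177 and 174 with BMP7 (log2 fold change -0.29, standard error 0.06, adjusted p = 0.00232). *Adamts14*, a procollagen N-proteinase, had a mean of 12.3 ± 2.64 CPM in Ctrl and of 5.47 ± 1.09 with BMP7 (SD over 3 libraries), without overlap (log2 fold change -1.17, standard error 0.17, adjusted p = 0.000173). On the log2 scale the collagen chaperone *Serpinh1* differed by 0.15 (adjusted p = 0.133), the procollagen C-proteinase *Bmp1* by 0.05 (adjusted p = 0.667) and the cross-linking enzyme *Lox*, under 1 CPM in all libraries, by 0.12 with a standard error of 0.44 (adjusted p = 0.905). None of the 3 tested cross-linking enzymes passed the threshold.

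Among 5 tested receptors, *Ddr1*, the collagen receptor kinase of epithelia, was at 118, 112 and 117 CPM in Ctrl and at 198, 192 and 186 with BMP7 (log2 fold change 0.73, standard error 0.06, adjusted p = 2.07e-07 in the edgeR test). Its fibroblast counterpart *Ddr2* and the integrin genes *Itga1*, *Itga2* and *Itga10* did not pass the threshold, with log2 fold changes between -0.10 and 0.33.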

How the data were processed

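RNA-sequencing of HC11 cells, 3 libraries with BMP7 and 3 without it, was used as deposited. The authors aligned read pairs with subjunc (Subread 2.0.3) and counted fragments per gene name on exons with featureCounts, and the counts were deposited without normalization, together with each gene's summed exon length. The methods name mm10 and GENCODE vM30, and the file header names featureCounts 2.0.1 and an mm39 annotation, whose positions are given here. Strand was not used, and fragments that map to several places or overlap several genes were left out by default. Exons shared with other genes covered at most 6.07% of any collagen's exon length, in *Col9a3*. The 30 tested collagens were searched for other transcripts at 95% identity over 100 bases (BLAST against GENCODE vM21). *Col5a1* matched *2810430I11Rik* and *Gm13372*, and *Col9a3* matched *Tcfl5*, all genes that overlap them. *Col3a1* matched *Gm47302* over 141 bases. It shares 141 exon bases with ENSMUSG00002074901, and whether the 2 names are 1 gene was not checked. Isoforms cannot be told apart.

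Counts were analysed in R 4.3.3 with edgeR 4.0.16 (expression filter, TMM, quasi-likelihood test of BMP7 against Ctrl, 4 residual degrees of freedom, 15733 genes, Benjamini-Hochberg adjustment). Calls needed an adjusted p below 0.05 together with a change above 1.2-fold. The standard error was taken as the size of the log2 change over the root of the F statistic. Libraries of 1 group differed by more than sampling noise (chi-square per degree of freedom 5.34 to 12.9). Ratios of partner chains were compared by exact permutation on the log2 scale. The test was tried on simulated counts before use. The members, classes and lists were chosen with earlier results of these data known. All collagens with at least 10 counts in at least 3 libraries are named. Of the 47 genes of collagen synthesis, processing and reception, those past the threshold are named, with *Serpinh1*, *P4hb*, *P4ha1*, *Plod2*, *Lox*, *Bmp1* and *Ddr1* whatever their call, and the receptors below the threshold were added once their values had been seen. Results were recomputed with DESeq2 1.42.0, other scalings, filters and thresholds, glmTreat, leaving out libraries, and a replicate block.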

Additional observations from a re-analysis of the deposited data

How the results depend on the processing

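*Col6a1*, *Col6a2*, *Col11a2*, *Col2a1*, *Col8a2*, *Col1a2* and *Col9a3* kept their direction and call under all 15 alternative fits at the main thresholds. The count of collagens higher was 11 under DESeq2, 10 under upper-quartile scaling, 9 at a fold of 1.5, 8 with glmTreat, 8 without BMP7 replicates 3 and 4 and 8 to 11 when 1 library was left out. Over all genes tested, 942 were higher in the main fit, 926 under DESeq2, 870 under upper-quartile scaling and 494 with glmTreat. When 1 library was left out, 723 to 1081 were higher. Collagens lower numbered 0 with glmTreat and at a fold of 1.5, and 2 by adjusted p alone. Genes lower over all those tested were 846 in the main fit and 254 with glmTreat. Of the synthesis, processing and receptor genes, 8 were higher without the filter on low counts, 3 of them genes with few counts that the filter had removed (*Fkbp10*, *Creb3l1* and *Loxl1*), and 2 with glmTreat or at a fold of 1.5. Without BMP7 replicates 3 and 4, *Col27a1* was at 0.67 (adjusted p = 0.0574). Directions turned for genes not called. For *Col11a1* the log2 fold change was -0.0058 with upper-quartile scaling, -0.032 without BMP7 replicates 3 and 4, and -0.022 to 0.083 over the fits without 1 library. For the others that range was -0.071 to 0.21 for *Col9a1*, -0.043 to 0.084 for *Col12a1*, -0.20 to 0.064 for *Col5a3*, -0.41 to 0.053 for *Col25a1* and -0.81 to 0.31 for *Col4a4*, and without BMP7 replicates 3 and 4 *Col12a1* was at -0.057 and *Col15a1* at -0.44. The cause was not tested. Groups share the replicate numbers 1 and 3 only, at correlations of -0.01 and 0.12, so the numbers were not read as pairing. With a replicate block over these pairs, which leaves 1 residual degree of freedom, 8 collagens were higher and 1 lower, and *Col11a1* was at -0.027, *Col9a1* at -0.12, *Col12a1* at -0.053, *Col5a3* at 0.065 and *Col4a4* at 0.046. Class sums in Ctrl, in CPM per kilobase, were 123 for basement membrane, 174 for transmembrane and 40.8 for anchoring fibril collagens when scaled by total count only. With the longest transcript as length, an alternative chosen after seeing the data, they were 235 for type VI, 183 for transmembrane, 125 for basement membrane, 117 for fibrillar, 64.3 for FACIT, 44.3 for anchoring fibril, 16.3 for multiplexin and 8.32 for short-chain collagens. Low counts limit *Col4a4*, *Col5a2*, *Col15a1* and *Col25a1*.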

Other observations

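*Col6a1* and *Col6a2* lie on chromosome 10 of the mm39 annotation, 85162 bases apart. The genes within 250000 bases of *Col6a1* are given here after their values were seen. Past the threshold in edgeR's quasi-likelihood test were *Pcbp3*, an RNA-binding protein gene 35689 bases away, at a log2 fold change of 0.89 (adjusted p = 2.06e-05), and *Gm35608*, which lies between the collagen genes, at 2.03 (adjusted p = 0.0172). The other tested neighbours did not pass it, *Gm48276*, 415 bases from *Col6a1*, at 0.17 (adjusted p = 0.751), *Lss* at 0.12, *Mcm3ap* at -0.03 and *Ybey* at 0.41.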
